A study of Mus musculus with 6 samples.

Results

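The 10 genes described here encode the core of the mammalian circadian clock: Arntl (also called Bmal1), Clock, Per1, Per2, Per3, Cry1, Cry2, Nr1d1, Nr1d2 and Dbp. Every probe set whose platform annotation names one of these genes alone was taken, which gave 23 probe sets for 10 of 10 genes among 45037 on the array. Of the 23, 20 were bright enough to be tested, among 22518 tested in all, and each gene kept at least 1. The 3 untested ones, 1 of Per2 and 2 of Per3, read at most 40.5 signal units on any array and are not used further. The arrays measured total RNA of mouse cerebral cortex. One group, called DKO label below, held 3 arrays labelled as a combined knockout of Egr1 and Egr3, and the other held 3 wild type (WT) arrays. Egr1 and Egr3 encode activity-induced zinc finger transcription factors. The sources used here do not give strain, age, sex, treatment, hour of death, the knockout alleles or whether each array stands for a separate animal. P-values therefore measure only the spread between these arrays, which may be technical. The title of DKO label replicate 1 names no genotype, unlike those of the other arrays in its group, and its group rests on the description alone. The comparison asks whether the clock genes differ between the groups in the way that different hours of sampling would leave.

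The clock is a feedback loop of transcription. BMAL1 (from Arntl) and CLOCK form a pair that binds E-box elements and switches on the period genes, the cryptochrome genes, Nr1d1, Nr1d2 and Dbp. PER and CRY proteins then return to the nucleus and inhibit that pair, while the REV-ERB receptors made from Nr1d1 and Nr1d2 repress Arntl through elements shared with the ROR receptors. In mouse tissues, including the forebrain, Dbp, the REV-ERB genes and the period genes therefore run roughly opposite in phase to Arntl, while Clock itself varies little. Per1 and Per2 are also induced directly by neuronal activity and, for Per1, by glucocorticoids. Besides its place in the suprachiasmatic nucleus, the brain's pacemaker, the loop runs in cortical cells.

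The elements through which these genes talk to each other can be read in their promoters. RefSeq start sites of assembly GRCm38.p6 were found for 9 of the 10 members (Per2 was not among them), with windows that begin 250 bases before a start and end 50 after it. The stretches below are shown because they hold such an element, in capitals, on the strand of the gene. Per1 and Cry1 carry the E-box CACGTG, Cry1 and Nr1d1 its variant CACGTT (written AACGTG where it lies on the other strand), Per3 carries paired D-boxes TTATGTAA, the site of the DBP family, and Arntl carries TAGGTCA, the core of the site shared by REV-ERB and ROR receptors.
Per1 (chr11:69098748-69098823, plus strand): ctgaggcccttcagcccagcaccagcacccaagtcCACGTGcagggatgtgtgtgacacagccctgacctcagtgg
Cry1 (chr10:85185074-85185168, minus strand): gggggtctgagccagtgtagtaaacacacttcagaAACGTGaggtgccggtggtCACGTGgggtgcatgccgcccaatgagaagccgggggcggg
Nr1d1 (chr11:98775365-98775440, minus strand): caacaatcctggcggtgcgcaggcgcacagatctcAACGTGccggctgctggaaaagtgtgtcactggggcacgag
Per3 (chr4:151044781-151044905, minus strand): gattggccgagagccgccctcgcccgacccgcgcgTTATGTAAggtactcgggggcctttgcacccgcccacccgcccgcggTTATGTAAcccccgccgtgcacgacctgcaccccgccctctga
Arntl (chr7:113207530-113207558, plus strand): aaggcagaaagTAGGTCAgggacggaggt

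Both strands were searched, and the motifs share no letters in these stretches. Of the 13 windows of the 9 member genes, 2 held CACGTG, 3 CACGTT (the third that of Cry2), 1 a D-box (TTATGTAA or TTACGTAA) and 1 TAGGTCA. Among all 32851 promoter windows of the table, 7.15% held CACGTG, 4.69% CACGTT, 1.06% a D-box and 2.61% TAGGTCA. The EGR motif, written as GCGTGGGCG or GCGGGGGCG, was in 3.47% of all windows and in none of those 13, and TGACGTCA, the cyclic AMP response element, was in 1.79% and in none. These matches are descriptions of letters in short windows and say nothing of binding in cortex.

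The median signal of an array was 36.2 to 39.5 units. Precision is limited by having 3 arrays a group. Egr3 read 339, 370 and 507 on the DKO label arrays, against 1189, 2670 and 924 on the WT arrays (log2 -1.80, limma adjusted p = 0.0361). Egr1 read 2116, 2647 and 2657 on the DKO label arrays, against 1247, 2054 and 1429.6 on the WT arrays (log2 0.67, limma adjusted p = 0.108), so its signal was not lower under the knockout label. Whether its probes lie outside a deleted part is not given, so Egr1 neither checks nor contradicts the label here. DKO label replicate 2 had an Xist signal of 3140, against at most 42.5 on the other arrays, and a signal of 0.63 for the Y-linked Eif2s3y, against at least 383, which is the pattern of a female. On WT replicate 1 the 9 spiked control probe sets read 0.355 to 0.51 of the median array. Markers of cortical excitatory neurons were present, and of the 9 pacemaker and hypothalamic markers on the array, 8 were too dim to be tested, Avp among them. Choroid plexus markers summed to 10997 on WT replicate 3 and 4796 on DKO label replicate 1, against 115 to 438 on the others.

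None of the 20 tested probe sets of the clock genes passed the test between the groups (0 of 20, limma, Benjamini-Hochberg adjusted p under 0.05 over all probe sets). Over all tested probe sets 1.02% passed. At an unadjusted p under 0.05 the count was 1 of 20, a Per3 probe set, against 16.6% of all. Signals of the groups did not overlap for 2 of the 20, one each of Per3 and Cry2, against 22.3% of all. The differences themselves were small and mostly of one sign: 15 of 20 were above 0 and 5 below, with a median of 0.14 on the log2 scale, while the median over all tested probe sets was 0.0093 and 51.6% lay above 0. All 5 below 0 belonged to the activators Arntl and Clock. Probe sets of the same gene share their transcript, and by the brightest probe set of each gene 8 of 10 were above 0. The median difference dropped to 0.0028, with 11 of 20 above 0, without WT replicate 1, the array with dim spiked controls. The lowest 95% limit was -0.68, for Arntl, and the highest 0.87, for Cry1, while the widest interval was that of the brightest Per2 probe set, -0.59 to 0.72.

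**Figure D1:**
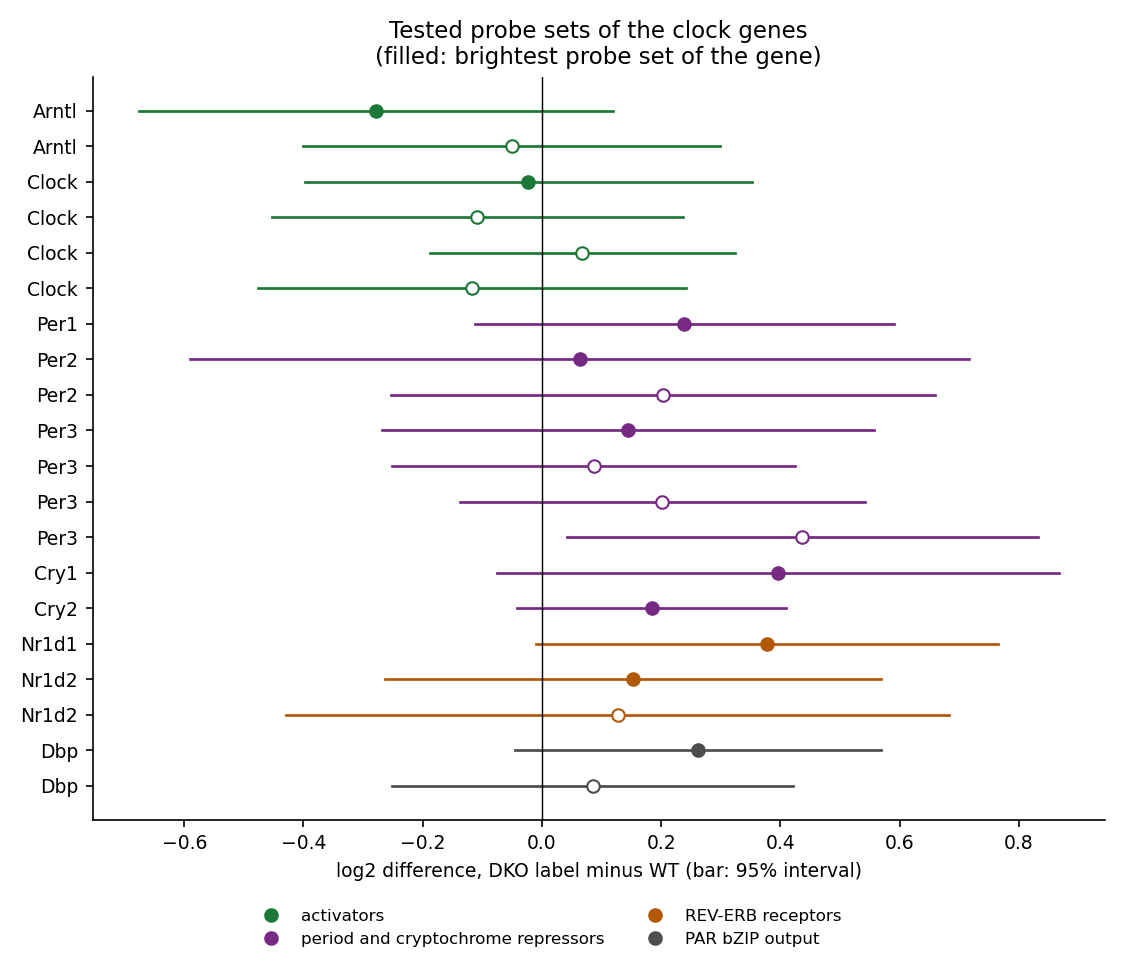
Each row is a tested probe set of a clock gene, with its log2 difference of DKO label minus WT as a point and its 95% limma interval as a bar; colours give the role and filled points the brightest probe set of a gene. The activators stand left of 0 but for a single Clock probe set, every other point lies right of 0, and only the interval of one Per3 probe set leaves 0 out.

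Arntl, which encodes the DNA-binding partner without which the loop stops, read 146, 205 and 219.8 on the DKO label arrays, against 274, 241 and 186 on the WT arrays. The lowest array was DKO label replicate 1 and the highest WT replicate 1, but WT replicate 3 fell below 2 DKO label arrays. The difference was -0.28 (SE 0.18, 95% interval -0.68 to 0.12, limma adjusted p = 0.469). A dimmer Arntl probe set, at 35.5 to 46.8 against 40.2 to 44.7 and hence close to the array medians, differed by -0.051.

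Clock, the histone acetyltransferase partner of BMAL1, had 4 tested probe sets with differences of -0.12 to 0.068. The brightest read 304, 382 and 281 on the DKO label arrays and 256, 399 and 335 on the WT arrays, with both extremes in WT. Its difference was -0.023 (SE 0.17, 95% interval -0.40 to 0.35, limma adjusted p = 0.966). The sign turned on 3 of the 4 probe sets when single arrays were left out, so no direction can be given for Clock.

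Per1, the period gene that responds fastest to stimulation, read 123, 163 and 189.7 on the DKO label arrays, against 134, 127 and 128 on the WT arrays. The WT arrays lay within a few units of each other, while the DKO label arrays held both the lowest and the highest value of all. The difference was 0.24 (SE 0.16, 95% interval -0.11 to 0.59, limma adjusted p = 0.482).

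Per2, the period protein most closely tied to the inhibition of CLOCK and BMAL1, read 76.6, 94.2 and 171 on the DKO label arrays and 78.8, 162 and 83.4 on the WT arrays. A single array of each group, DKO label replicate 3 and WT replicate 2, stood apart from the other 4. The group difference was 0.063 (SE 0.29, 95% interval -0.59 to 0.72, limma adjusted p = 0.946), and its sign turned when DKO label replicate 3, WT replicate 1 or WT replicate 3 was left out (-0.23, -0.099 and -0.065). On a second, dimmer Per2 probe set DKO label replicate 3 was again highest, at 72.6, but WT replicate 2 was lowest, at 37.0.

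Per3, which is dispensable for the loop in mice, had 4 tested probe sets with differences of 0.087 to 0.44. The brightest read 116.1, 152 and 128 on the DKO label arrays, against 89.5, 154 and 116.3 on the WT arrays. WT replicate 2 was the highest of the 6 arrays and WT replicate 1 the lowest on this and on 2 other Per3 probe sets. The only one whose groups did not overlap read 82.4, 94.0 and 80.1 on the DKO label arrays, against 51.6, 79.0 and 49.2 on the WT arrays. Its difference of 0.44 (SE 0.18, 95% interval 0.042 to 0.83) had an unadjusted p of 0.0335 and did not pass (limma adjusted p = 0.257). The nearest arrays of the groups were a little over 1 signal unit apart, and the other 3 probe sets overlapped.

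Cry1, the cryptochrome that peaks later than the period genes, read 76.6, 101 and 108.8 on the DKO label arrays, against 60.2, 98.5 and 52.1 on the WT arrays. Its WT replicate 2 lay between DKO label arrays and the other WT arrays below all of them. The difference was 0.40 (SE 0.21, 95% interval -0.076 to 0.87, limma adjusted p = 0.385).

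Cry2, the second cryptochrome, read 461, 483 and 522 on the DKO label arrays, against 453, 419 and 411 on the WT arrays. All DKO label arrays stood above all WT arrays, by a margin of less than 8 units between the nearest. The difference was 0.18 (SE 0.10, 95% interval -0.042 to 0.41, limma adjusted p = 0.399). The SD within groups, 0.080 on the log2 scale, was the smallest among the 20 tested probe sets of the clock genes.

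Nr1d1, which encodes REV-ERB alpha, read 136, 138 and 134 on the DKO label arrays, against 136, 81.6 and 91.1 on the WT arrays. The DKO label arrays were nearly equal, and WT replicate 1 read the same as they did. The difference was 0.38 (SE 0.17, 95% interval -0.0095 to 0.77, limma adjusted p = 0.313). Its paralogue Nr1d2, encoding REV-ERB beta, read 1349.96, 1095 and 1325 on the DKO label arrays, against 849, 1533 and 1089 on the WT arrays. Here WT replicate 1 was the lowest and WT replicate 2 the highest array, the opposite order of the same arrays on Nr1d1. The difference for Nr1d2 was 0.15 (SE 0.19, 95% interval -0.26 to 0.57, limma adjusted p = 0.730), and a dimmer probe set differed by 0.13.

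Dbp, an output factor of the PAR bZIP family whose transcript swings widely over the day in most tissues, read 1400.02, 978 and 1332 on the DKO label arrays, against 1075, 1039 and 942 on the WT arrays. DKO label replicates 1 and 3 were above every WT array, and DKO label replicate 2 lay among them. The difference was 0.26 (SE 0.14, 95% interval -0.046 to 0.57, limma adjusted p = 0.378). This probe set's name marks probes that can match more than 1 transcript. The other Dbp probe set gave 637, 420 and 549.8 against 546, 505 and 444 and differed by 0.085, with DKO label replicate 2 the lowest of all arrays.

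**Figure D2:**
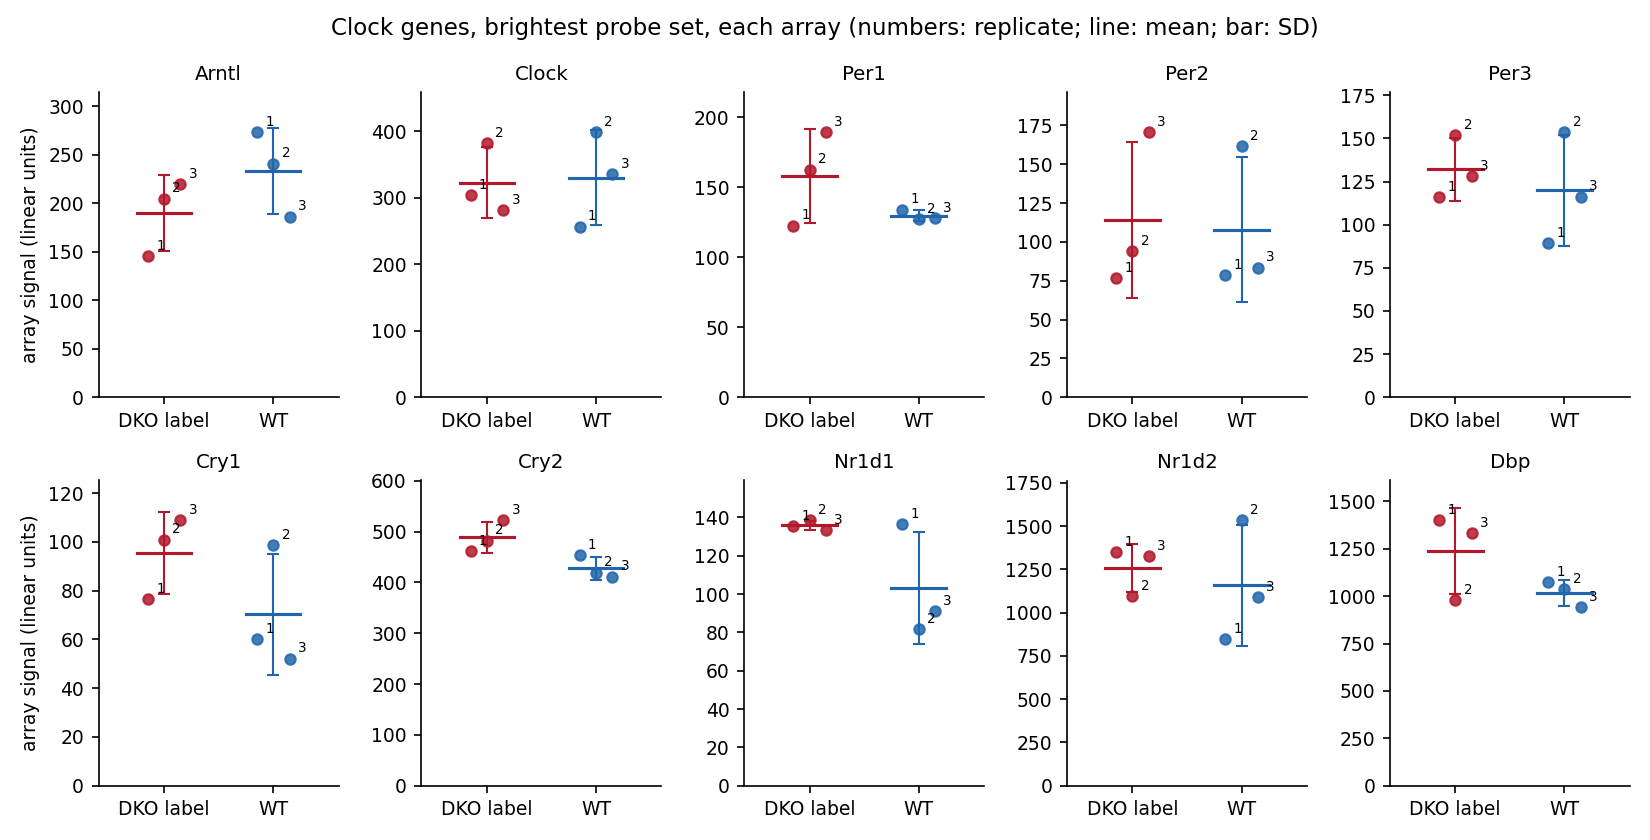
Array signal (linear units, axes from 0) of the brightest probe set of each of the 10 clock genes, DKO label left of WT; points are arrays with their replicate number, lines are means and bars are SD over 3 arrays. Only for Cry2 do all DKO label points lie above all WT points, and the Per2 panel has a single high array in each group, at 171 and 162.

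To set the arrays side by side as a phase pattern, an index was formed from each gene's brightest probe set. It is the mean log2 signal, centred over the 6 arrays, of Per1, Per2, Per3, Nr1d1, Nr1d2 and Dbp, less that of Arntl and Clock, so that a higher index means more output relative to activator. It was 0.28, -0.071 and 0.33 on the DKO label arrays, against -0.22, -0.16 and -0.15 on the WT arrays. All DKO label arrays were above all WT arrays, the nearest, DKO label replicate 2, by less than 0.1. The group means were 0.18 ± 0.22 for the DKO label and -0.18 ± 0.040 for WT (SD, n = 3 each), a difference of 0.36 that is given without a test, since the genes were chosen with earlier results of these data known. Neither component of the index separated the groups. The 6 output and repressor genes averaged 0.0048, 0.035 and 0.27 on the DKO label arrays, against -0.20, 0.083 and -0.20 in WT, and the activators -0.28, 0.11 and -0.058, against 0.028, 0.25 and -0.048.

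The separation also depended on which genes stood for the activators. With Npas2, a forebrain partner of BMAL1 that can take the place of CLOCK, added to them, the index was 0.15, -0.29 and 0.39 on the DKO label arrays and -0.10, -0.21 and 0.063 on the WT arrays. The groups then overlapped and the difference shrank to 0.16. With Nr1d1, Nr1d2, Per3 and Dbp set against Arntl alone, it was 0.62, 0.066 and 0.081, against -0.56, -0.17 and -0.040, a difference of 0.51. An index of this kind has no scale in hours in these data, because no array carries a known time. Time of sampling and genotype cannot be told apart here, since the labels give no time for any array.

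**Figure D3:**
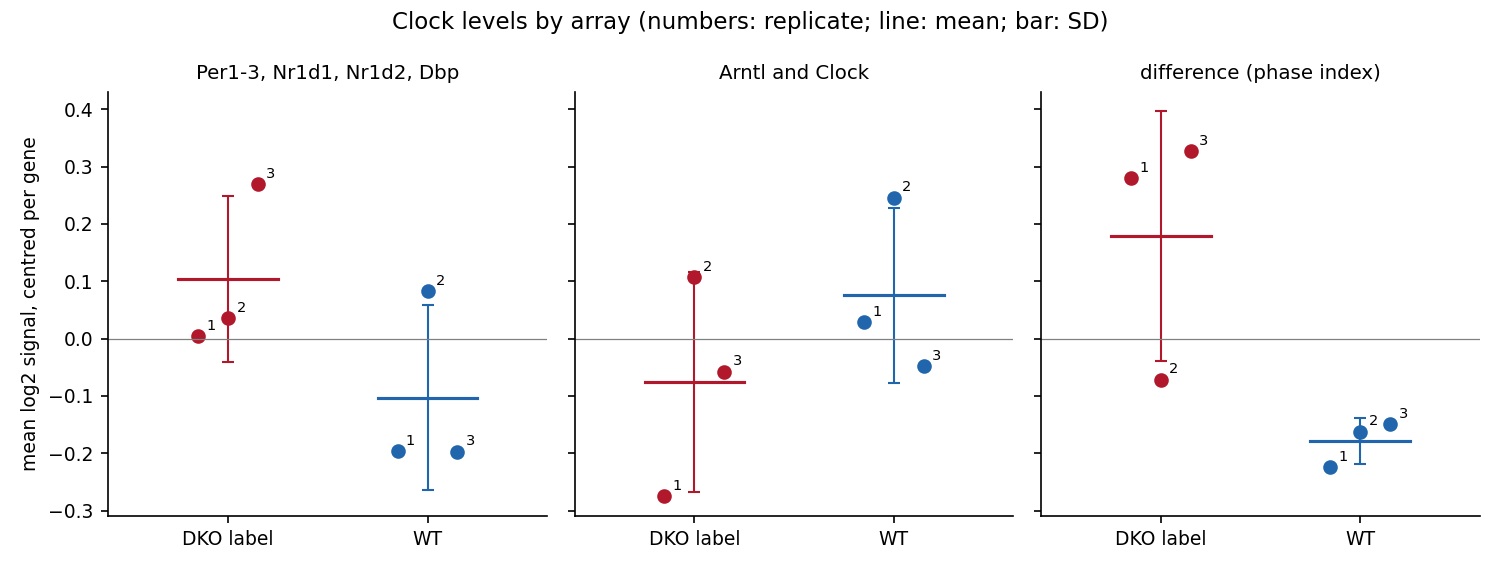
Mean log2 signal centred per gene (y axis) of 6 output and repressor genes, of Arntl and Clock, and their difference, for each array; points carry the replicate number, lines are means and bars SD over 3 arrays, DKO label left of WT. The groups overlap in the first 2 panels and stand apart in the last, where DKO label replicate 2, at -0.071, lies next to the WT arrays.

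The clock genes varied between arrays of the same label. The median SD within groups was 0.23 on the log2 scale over the 20 probe sets of the clock genes and 0.17 over all tested probe sets. Of the 10 brightest probe sets 4 were highest on DKO label replicate 3 and 3 on WT replicate 2. The lowest value fell on DKO label replicate 1, WT replicate 1 and WT replicate 3 for 3 genes each, and for Nr1d1 on WT replicate 2. Both labels thus held arrays with the highest and arrays with the lowest values, with more of the lowest values on WT arrays.

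Genes induced by activity and by glucocorticoids also differed between arrays of the same label. Fos, the classical activity-induced factor, read 169.9, 263 and 472 on the DKO label arrays, against 163, 276 and 221 on the WT arrays. Arc, a postsynaptic activity gene, read 45.9, 87.0 and 192 on the DKO label arrays, against 33.2, 114 and 136 on the WT arrays. DKO label replicate 3, the array with the highest Per1 and Per2, was also highest in both. The same array was highest in the tested probe sets of Junb, Nr4a1, Egr2, Egr4, Dusp1 and Ier2. The remaining tested activity genes, Npas4, Bdnf and Homer1, were highest on other arrays, Npas4 on DKO label replicate 2. Bdnf, a neurotrophin, read 98.6, 118 and 152 on the DKO label arrays, against 214, 358 and 224 on the WT arrays (log2 -1.001, limma adjusted p = 0.0549). Bdnf and every tested probe set of Homer1, a synaptic scaffold gene, were highest on WT replicate 2. Of the 16 tested probe sets of the activity list, 0 passed, 5 had an unadjusted p under 0.05, and 9 differences were above 0 and 7 below. The shares over all tested probe sets were 1.02% passed and 16.6% with an unadjusted p under 0.05. Among genes that glucocorticoids induce, Fkbp5 read 148, 358 and 364 on the DKO label arrays, against 216, 164 and 196 on the WT arrays. Its 2 high arrays, DKO label replicates 2 and 3, were those with the highest Per1. Sgk1 read 874, 1349.86 and 1002 on the DKO label arrays, against 724, 665 and 624 on the WT arrays (limma adjusted p = 0.0793). Whether activity or hormone state had a part in the Per1 and Per2 values was not tested.

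Of the other transcription factors of the clock, 12 were listed, 11 were on the array and 9 were tested, with 20 probe sets. Bhlhe40, also called DEC1, a repressor that competes at E-boxes and is itself induced by activity, rose. It read 547, 733 and 875 on the DKO label arrays, against 282, 432 and 379 on the WT arrays, with no overlap. The log2 change was 0.94 (SE 0.19, limma adjusted p = 0.0497). That call lay just under the threshold and was lost in 10 of 17 alternative settings, over which the limma adjusted p was 0.0125 to 0.320. Without DKO label replicate 2 or 3 the limma adjusted p was 0.191 each, and without WT replicate 1 or 3 it was 0.112 and 0.0775. The remaining 19 probe sets of the list did not pass, and 10 of the 20 had an unadjusted p under 0.05. The shares over all tested probe sets were 1.02% passed and 16.6% with an unadjusted p under 0.05.

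Tef and Hlf encode the other members of the PAR bZIP family, to which DBP belongs. Tef read 1482, 1359 and 1476 on the DKO label arrays, against 1155, 1147 and 1150.36 on the WT arrays, a difference of 0.32 (SE 0.091, limma adjusted p = 0.133). Hlf read 878, 896 and 955 on the DKO label arrays, against 554, 817 and 549 on the WT arrays, a difference of 0.52 (SE 0.15, limma adjusted p = 0.132). All 3 tested Tef probe sets and both of Hlf had every DKO label array above every WT array, as did 11.5% of all tested probe sets. Nfil3, which represses at the D-box where DBP, TEF and HLF activate, read 40.1, 52.7 and 57.4 on the DKO label arrays, against 78.5, 117 and 65.9 on the WT arrays. Its difference was -0.62 (SE 0.20, limma adjusted p = 0.180), again without overlap. Ciart, a repressor also known as Chrono, read 113, 85.6 and 98.6 on the DKO label arrays, against 75.2, 62.3 and 70.3 on the WT arrays. It differed by 0.43 (SE 0.15, limma adjusted p = 0.203).

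Tef and Ciart promoters hold E-boxes and that of Nfil3 the TAGGTCA core (on the other strand, TGACCTA), in capitals below. They are shown as further examples of E-boxes and of the REV-ERB and ROR core, in genes chosen after their values had been seen. Both Tef windows with an E-box are given, and the Hlf window, which held TGACGTCA, is not.
Tef (chr15:81802511-81802586, plus strand): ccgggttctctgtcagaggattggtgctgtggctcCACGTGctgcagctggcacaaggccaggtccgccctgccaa
Tef, other start (chr15:81811241-81811316, plus strand): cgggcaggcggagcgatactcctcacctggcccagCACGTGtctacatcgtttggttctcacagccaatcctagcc
Ciart (chr3:95882232-95882379, minus strand): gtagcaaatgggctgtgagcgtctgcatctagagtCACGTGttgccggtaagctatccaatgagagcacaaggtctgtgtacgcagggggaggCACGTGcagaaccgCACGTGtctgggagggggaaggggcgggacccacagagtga
Nfil3 (chr13:52981030-52981066, minus strand): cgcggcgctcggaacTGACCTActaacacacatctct

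**Figure D4:**
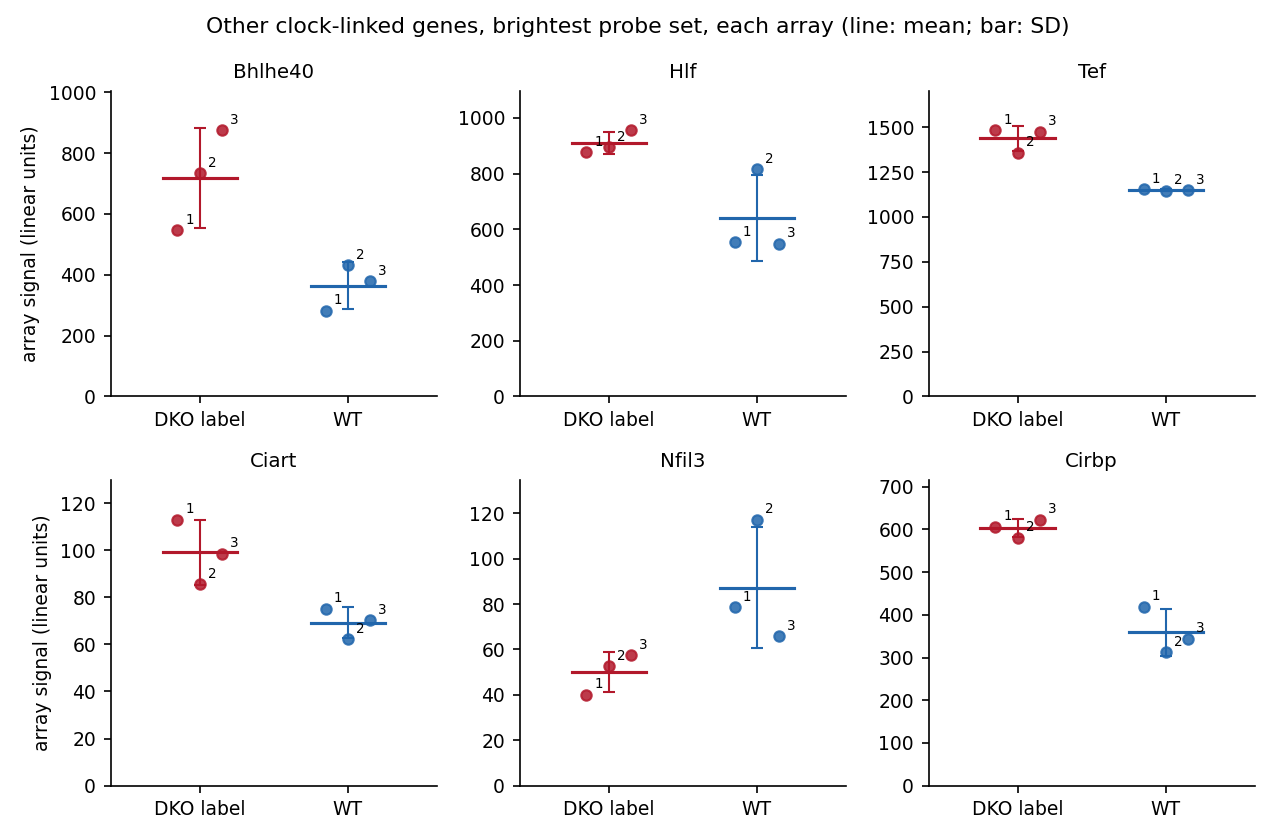
Array signal (linear units, axes from 0) of the brightest probe set of Bhlhe40, Hlf, Tef, Ciart, Nfil3 and Cirbp, DKO label left of WT; points are arrays with their replicate number, lines are means and bars SD over 3 arrays. The groups do not overlap in any panel, Nfil3 being lower in the DKO label arrays and the others higher. Hlf, Tef, Ciart and Nfil3 were chosen after their values had been seen, and 22.3% of all tested probe sets did not overlap. Only Bhlhe40 and Cirbp passed the test.

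Npas2 read 254, 402 and 195 on the DKO label arrays, against 179.7, 307 and 138 on the WT arrays, and the groups overlapped. Arntl2, a paralogue of Arntl, read 60.6, 50.3 and 83.2 on the DKO label arrays, against 43.2, 44.3 and 32.0 on the WT arrays, without overlap (log2 0.52, limma adjusted p = 0.218). Rora, a receptor that activates Arntl, had 6 tested probe sets with positive differences, 0.27 for the brightest, and Rorb ranged from -0.31 to 0.28 over 3. The Rorb value of -0.31 rests on WT replicate 2, at 631, where the other 5 arrays read 163 to 230.4. Bhlhe41 and Timeless were too dim to be tested. Over the list, 18 of 20 differences were above 0, with a median of 0.36. The groups did not overlap for 10 of the 20, 9 of them with the DKO label arrays higher, against 22.3% of all tested probe sets in either direction and 11.5% with the DKO label arrays higher. Probe sets of the same gene share their transcript, and the list was drawn up with earlier results of these data known.

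**Figure D5:**
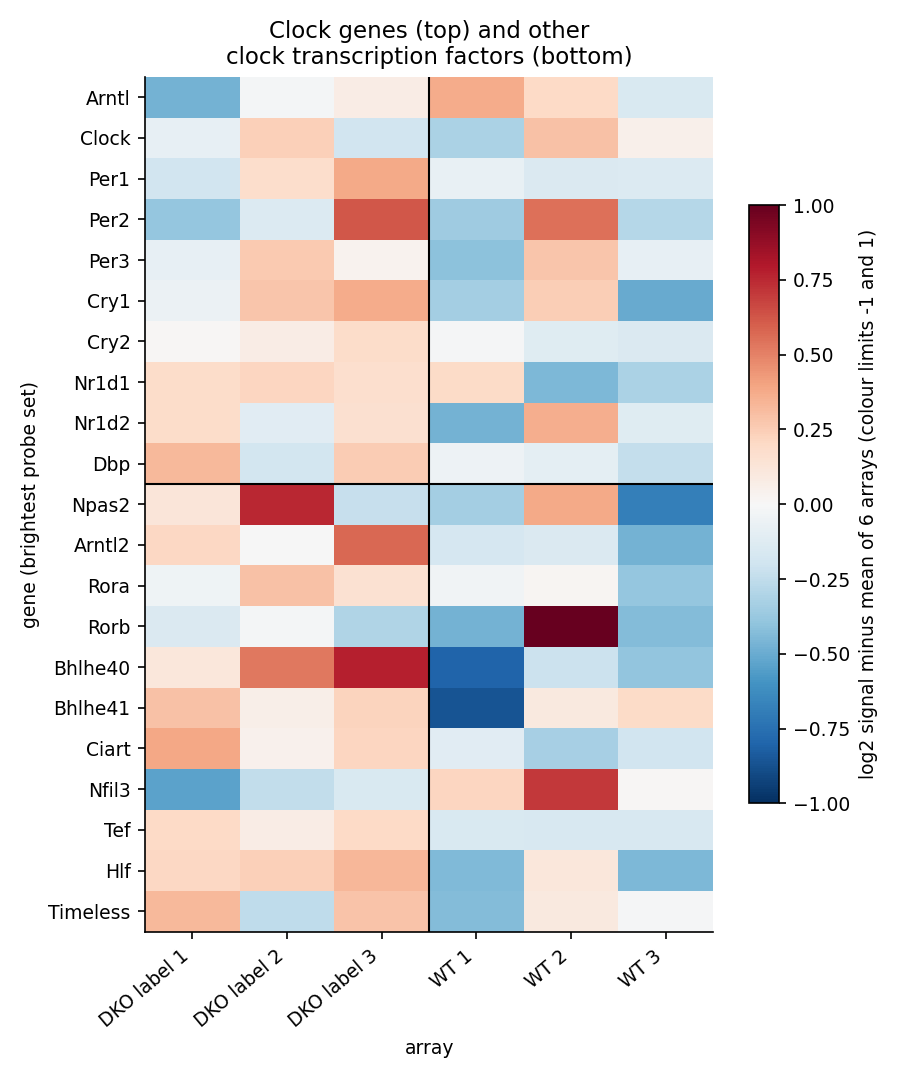
Log2 signal minus the mean of the 6 arrays (colour, limits -1 and 1, which Rorb on WT replicate 2 exceeds at 1.38) of the brightest probe set of the 10 clock genes (above the line) and of 11 other clock transcription factors (below it), DKO label arrays left of WT arrays. Cry2, Tef, Hlf, Ciart, Arntl2 and Bhlhe40 are higher in all DKO label columns and Nfil3 in all WT columns, while Per2, Clock and Nr1d2 differ more within groups. Of the genes shown, Bhlhe41 and Timeless were too dim to be tested.

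Proteins that modify or bind clock proteins were listed next. Of 14 listed genes 11 were tested, with 35 probe sets, and 0 of 35 passed in limma, with 5 at an unadjusted p under 0.05 and a median difference of 0.074. Both counts are read against the 1.02% and 16.6% over all tested probe sets, to which they are close. Csnk1d and Csnk1e, the kinases that mark PER proteins for decay, had 7 tested probe sets with differences of -0.084 to 0.41. The smallest p-values were those of Nono and Usp2. Nono, an RNA-binding partner of PER proteins, gave -0.73 on one of its dimmer probe sets (limma adjusted p = 0.134) but 0.074 on its brightest. Usp2, a deubiquitinase under clock control, read 872, 805 and 772 on the DKO label arrays, against 652, 644 and 708 on the WT arrays (log2 0.28, limma adjusted p = 0.197).

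Among 15 genes that feed into the clock or follow it, 14 were tested with 36 probe sets, and Cirbp rose. Cirbp encodes a cold-inducible RNA-binding protein whose level changes with the daily rhythm of body temperature and which acts on clock transcripts. It read 606, 581 and 623 on the DKO label arrays, against 419, 313 and 344 on the WT arrays, with no overlap. The log2 change was 0.73 (SE 0.12, limma adjusted p = 0.0270). The call was lost in 7 of 17 alternative settings, with limma adjusted p-values of 0.0175 to 0.128 over all of them. Without DKO label replicate 1, 2 or 3 the limma adjusted p was 0.0715, 0.102 and 0.128, and without WT replicate 3 it was 0.0590. The other 35 probe sets did not pass, and 10 of the 36 had an unadjusted p under 0.05. The groups did not overlap for 5 probe sets with the DKO label arrays higher and for 4 with them lower. The shares over all tested probe sets were 1.02% passed, 16.6% with an unadjusted p under 0.05 and 22.3% without overlap. Wee1, a cell cycle kinase with E-boxes under clock control in mouse liver, read 96.5, 87.6 and 117 on the DKO label arrays, against 139.96, 187 and 121 on the WT arrays (log2 -0.50, limma adjusted p = 0.201). The genes named from the activity list, Fkbp5, Sgk1, Wee1, Csnk1d and Csnk1e were singled out after their values had been seen. So were, Bhlhe40 aside, the other clock transcription factors with values above.

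The genes whose signal followed that of Arntl most closely over the 6 arrays were Pip5k1c (Pearson's r = 0.994), Ctnnd1 (0.9895) and Map1b (0.988). Those closest to Dbp were Ggct (0.999), Bcl2l2 (0.997) and Gm266 (0.989). They are the highest of 19554 tested probe sets of other genes, of which 120 had an r above 0.9 with Arntl and 133 with Dbp, and are given as a description. Members of the clock were not candidates in this ranking, so their absence from it is not a result. Ranking by the highest r also cannot find genes that run opposite to Arntl or Dbp. By the brightest probe sets, r of the other members with Arntl ranged from -0.39 for Dbp to 0.37 for Per2. With Dbp it ranged from -0.51 for Clock to 0.59 for Cry2.

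Of the 10 members only Nr1d2 lies on the chromosome of a targeted gene, that of Egr3, and more than 20 Mb from it. Summed markers of some other cell types did not overlap between the groups. The 10 microglia markers summed to 3077 to 4026 signal units on the DKO label arrays, against 4116 to 4962 on the WT arrays, with 15 of 15 tested probe sets below 0 and 0 of 15 past the test. The 9 endothelial and vessel wall markers summed to 1641 to 1938, against 2076 to 2442. Of their 15 tested probe sets 4 were above 0, 11 were below, and 0 passed. The 7 oligodendrocyte markers summed to 20882 to 25512, against 18780.3 to 20449. Of their 20 tested probe sets 17 were above 0, 3 were below, and 0 passed. The summed levels of excitatory neuron, interneuron and astrocyte markers overlapped between the groups, but some single markers did not. Aqp4, the water channel of astrocyte endfeet, fell on all 3 of its probe sets; the brightest read 592, 392 and 499.8 on the DKO label arrays, against 970.01, 972 and 958 on the WT arrays (log2 -0.96, limma adjusted p = 0.0139). Of the 24 tested astrocyte probe sets 3 passed, all of Aqp4, and 11 did not overlap, 5 of them higher and 6 lower on the DKO label arrays. The shares over all tested probe sets were 1.02% passed and 22.3% without overlap. The interneuron gene Vip, a neuropeptide also made in the pacemaker nucleus, rose: it read 1740.2, 1843 and 1557 on the DKO label arrays, against 1129.7, 1262 and 1096 on the WT arrays (log2 0.55, limma adjusted p = 0.0453). Of the 10 tested interneuron probe sets only that of Vip passed. Their differences were above 0 for 4 and below 0 for 6, with a median of -0.033. Aqp4 and Vip were named after their values had been seen. In whole cortex fewer cells of a type and less RNA per cell cannot be told apart, and the part of cell makeup in the clock gene values was not tested. The 3' to 5' ratio of the Gapdh control, a sign of RNA quality, was 0.922, 0.9497 and 0.881 on the DKO label arrays, against 0.842, 0.806 and 0.873 on the WT arrays, and the groups did not overlap. That of the Actb control was 1.89, 1.68 and 1.75 on the DKO label arrays, against 1.58, 1.67 and 1.95 on the WT arrays, and overlapped. The part of RNA quality was not tested either.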

How the data were processed

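The authors deposited linear intensity signals for each probe set of 6 arrays, already summarised and scaled. The sources used here name neither software nor settings nor a genome build. Genes were named from the platform's annotation, updated by gene number in a RefSeq table of assembly GRCm38.p6. The 4.35% of values below 1 were raised to 1 before taking log2(signal + 16), a scale on which changes of low signals come out too small. Probe sets with a mean log2 signal above the median of all were tested with limma 3.58.1 in R 4.3.3 (group as the only term, intensity trend in eBayes), with two-sided p-values adjusted over all 22518 by the Benjamini-Hochberg method. An exact permutation test of 3 against 3 cannot go below 0.1 and was not used. Every column of the table was used.

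The members and lists were chosen with earlier results of these data known. Named were all members, in each other clock list the genes past the threshold or else the 2 with the smallest p-values, and the genes most like Arntl and Dbp by Pearson's r. Genes named beyond that rule are marked as chosen after their values were seen. Simulated data were used to test the limma fit. Alternatives were other pseudocounts, normalizations, filters, trends, weights and thresholds, a replicate block, and arrays left out. The labels do not say that replicate numbers pair the arrays. Deviations of same-numbered arrays from their group means correlated at -0.15, 0.0013 and -0.10, and those of differently numbered arrays at -0.052 to 0.14. Deviations from a mean of 3 arrays are tied to each other, so these values cannot exclude a pairing.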

Additional observations from a re-analysis of the deposited data

How the results depend on the processing

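No tested probe set of the 10 clock genes passed in any of the 17 alternative fits or at an adjusted p under 0.1. The smallest adjusted p over these fits was 0.117, and 309 of 328 differences kept their sign. The other 19 turned when arrays were left out; the cause was not tested. With 1 array left out at a time, the dimmer Arntl probe set lay between -0.13 and 0.017, 3 Clock probe sets between -0.21 and 0.072, -0.015 and 0.12, and -0.19 and 0.12, those of Per2 between -0.23 and 0.35 and between -0.00090 and 0.34, and the brightest of Per3 between -0.025 and 0.32. Those of Nr1d2 lay between -0.046 and 0.37 and between -0.066 and 0.40, and the dimmer Dbp probe set between -0.046 and 0.24. Without both WT replicate 1 and DKO label replicate 2 the turned values were Arntl (0.021), Clock (-0.047), Per2 (-0.013) and Per3 (-0.013 and -0.12).

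The count of all probe sets past the threshold, 229, became 10 with no filter, 131 with no intensity trend, 12 without both of those arrays and 586 at the threshold of 0.1, and lay between 34 and 292 with 1 array left out. With the replicate block it was 182, a result for arrays not known to share more than a number. The 2 calls among other clock genes became 3 with that block, 1 with a pseudocount of 1, with quantile normalization or with a shift to the common median, and 0 with no filter, with no intensity trend or without both arrays. With 1 array left out the count was 0 to 3. The phase index difference of 0.36 lay between 0.28 and 0.48 with 1 array left out and at 0.16 with Npas2 added. The medians of the clock genes and of the other clock transcription factors, alternatives added after the data were seen, ranged from 0.0028 to 0.23 and from 0.26 to 0.44. The number of arrays and dim signals close to background limit what can be resolved.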
